A study of Homo sapiens with 4 samples.

Results

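The genes examined were 10 regulators and components of microtubules, the tubulin filaments that carry transport and shape axons: MAP1S, MAP1A, MAP1B, MAP2, MAP4, MAPT, STMN1, STMN2, DCX and TUBB3. MAP1S was chosen by its log2 values in the 2 groups, which differed, and the others were taken as its family and its functional relatives. Of these 10 genes, 8 had a probe set with their symbol in the platform annotation, out of 17687 gene symbols in all. STMN1 and TUBB3 are not named in that annotation and were not analysed here. Each of the 8 had 1 probe set.

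Expression was measured on 4 Affymetrix whole-transcript arrays of SK-N-AS, an established human neuroblastoma line. For 2 arrays the culture had received 30 µM of BG-P400-TAT, and for 2 phosphate-buffered saline instead (called untreated here), in both cases over 48 h. BG-P400-TAT is named in the series title as a compound aimed at the norepinephrine transporter and at the αvβ3 integrin that binds thyroid hormone, and the question put to the arrays was which genes respond to it. All 4 arrays are of this 1 line and no genetic change is named for it. The design text calls the arrays of a group biological replicates, but nothing in the labels says how cultures were kept apart, so the spread behind each interval and p-value may be technical.

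Microtubule-associated proteins bind along the filament and stabilise it. MAP1S, MAP1A and MAP1B form the MAP1 family, whose members are made as a precursor that is cut into a heavy and a light chain. MAP1B is typical of growing axons, MAP1A of mature neurons, and MAP1S is expressed in many tissues and is linked to autophagy through light chain 3. MAP2, MAP4 and tau (MAPT) share a different microtubule-binding repeat, doublecortin (DCX) stabilises microtubules in migrating neurons, and stathmins such as STMN2 hold tubulin dimers away from the filament.

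A probe set was called above background on an array where it exceeded the value below which 95% of the 612 negative-control sets of that array lay. These limits were 7.19 and 7.25 on treated replicates 1 and 2, and 7.31 and 7.64 on untreated replicates 1 and 2, on the log2 scale of the deposited values. Untreated replicate 2 stood apart from the rest, with a median absolute log2 difference of 0.237 to 0.244 to the other arrays, where the pairs without it differed by 0.193 to 0.208. The line's markers were only partly present: 10 of 10 mesenchymal neuroblastoma markers and 6 of 8 measured sympathoadrenal markers were above the limit on all 4 arrays. TH and DBH, enzymes of catecholamine synthesis, were not above it on any array. Of 8 measured markers of other cell types, PTPRC (a leukocyte phosphatase) and CD68 (a lysosomal protein of macrophages) were above it on all arrays. PTPRC had 12.71 and 12.57 on the treated arrays, against 12.75 and 12.80 on the untreated arrays, and whether its probe set is specific to PTPRC could not be checked here. CD68 had 10.73 and 10.78 on the treated arrays, against 10.58 and 10.73 on the untreated arrays. CD3E, EPCAM, CDH1, PECAM1, VWF and KRT5 were above the limit on 0 of 4 arrays.

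MAP1S is the gene chosen for its difference, so the 250 bases before its outermost RefSeq start are shown with those of its paralogs MAP1A and MAP1B. The sequences are RefSeq's, in GRCh38.p14, all on the plus strand, at chr19:17719230-17719479 for MAP1S, chr15:43510704-43510953 for MAP1A and chr5:72107225-72107474 for MAP1B. Capitals mark matches on either strand to the GC box GGGCGG, the CCAAT box CCAAT and the TATA box TATAAA.
MAP1S: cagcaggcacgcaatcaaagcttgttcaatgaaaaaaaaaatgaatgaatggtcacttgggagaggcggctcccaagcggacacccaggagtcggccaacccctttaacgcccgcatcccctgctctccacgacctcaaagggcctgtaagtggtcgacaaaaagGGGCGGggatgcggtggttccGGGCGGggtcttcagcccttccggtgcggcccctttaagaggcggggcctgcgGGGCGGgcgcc
MAP1A: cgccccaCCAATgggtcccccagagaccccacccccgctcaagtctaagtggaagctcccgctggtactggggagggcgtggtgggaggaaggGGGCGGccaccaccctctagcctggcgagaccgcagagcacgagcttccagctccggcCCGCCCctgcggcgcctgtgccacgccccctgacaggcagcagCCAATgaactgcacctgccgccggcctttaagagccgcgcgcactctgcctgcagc
MAP1B: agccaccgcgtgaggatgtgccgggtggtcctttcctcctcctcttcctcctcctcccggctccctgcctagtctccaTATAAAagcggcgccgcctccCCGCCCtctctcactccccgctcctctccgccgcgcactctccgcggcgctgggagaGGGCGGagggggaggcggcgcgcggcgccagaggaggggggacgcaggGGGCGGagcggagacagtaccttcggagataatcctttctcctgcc

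The MAP1S window held 3 GC boxes, at 85, 64 and 11 bases before the start, and no CCAAT or TATA box. The MAP1A window held 2 GC boxes, at 157 and 99 bases before the start, and 2 CCAAT boxes, at 243 and 56. The MAP1B window held 3 GC boxes, at 151, 94 and 46 bases before the start, and 1 TATA box, at 172. Among 35116 RefSeq promoter windows of the same length, 42.6% held a GC box, 32% a CCAAT box and 10.7% a TATA box. The E-box CACGTG, the AP-1 site TGACTCA and the cAMP response element TGACGTCA were found in none of the 3 windows, and in 6.34%, 4.2% and 1.65% of all windows. The share of G and C was 61.6% for MAP1S, 70.4% for MAP1A and 70.0% for MAP1B, against a median of 58.0% over all windows. These matches describe the letters of the windows and were not set against any binding data.

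MAP1S, the widely expressed member of the family, was higher in treated cells. Its log2 expression was 9.60 and 9.86 on the treated arrays, against 8.78 and 8.60 on the untreated arrays. Both treated arrays lay above both untreated arrays, with 0.82 between the nearest pair, while the arrays within a group differed by 0.26 (treated) and 0.18 (untreated). The means were 9.73 ± 0.18 in treated and 8.69 ± 0.12 in untreated cells (SD, n = 2 each), a log2 difference of 1.04 ± 0.20 (SE), or 2.05-fold, with a 95% interval from 0.57 to 1.51. Because MAP1S was chosen for this difference, these values are a description and no test is given. It exceeded the limit by 2.41 and 2.61 on the treated arrays and by 1.46 and 0.96 on the untreated arrays. Of the 612 negative-control sets, 9 had a mean at or above that of MAP1S, and against their 99th percentile MAP1S was above on 1 of the 4 arrays. With an array left out the log2 difference was 0.91 to 1.17, and without untreated replicate 2, the array that stood apart, it was 0.95.

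Markers of the line itself had mostly positive differences, the direction of MAP1S, and none passed the test. Of the 10 mesenchymal markers 9 had positive differences, with a median of 0.20 (0.070 to 0.35 with an array left out), against 57.9% positive and a median of 0.034 over all probe sets above the limit. Both treated arrays were higher in 4 of these 10, against 20.3% of the probe sets above the limit on all arrays. FOSL1, an AP-1 subunit, had a log2 difference of 0.45 (interval -0.13 to 1.03). YAP1, a transcriptional co-activator, had 0.42 (interval -0.02 to 0.86). Of the 8 measured sympathoadrenal markers 6 had positive differences, with a median of 0.14 (-0.075 to 0.26 with an array left out). PHOX2A, a homeodomain factor of the sympathetic lineage, had 0.58 (interval 0.11 to 1.05; limma adjusted p = 0.948) and GATA2, a zinc-finger transcription factor, 0.42 (interval -0.08 to 0.93). Their part in the MAP1S difference was not tested.

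**Figure D1:**
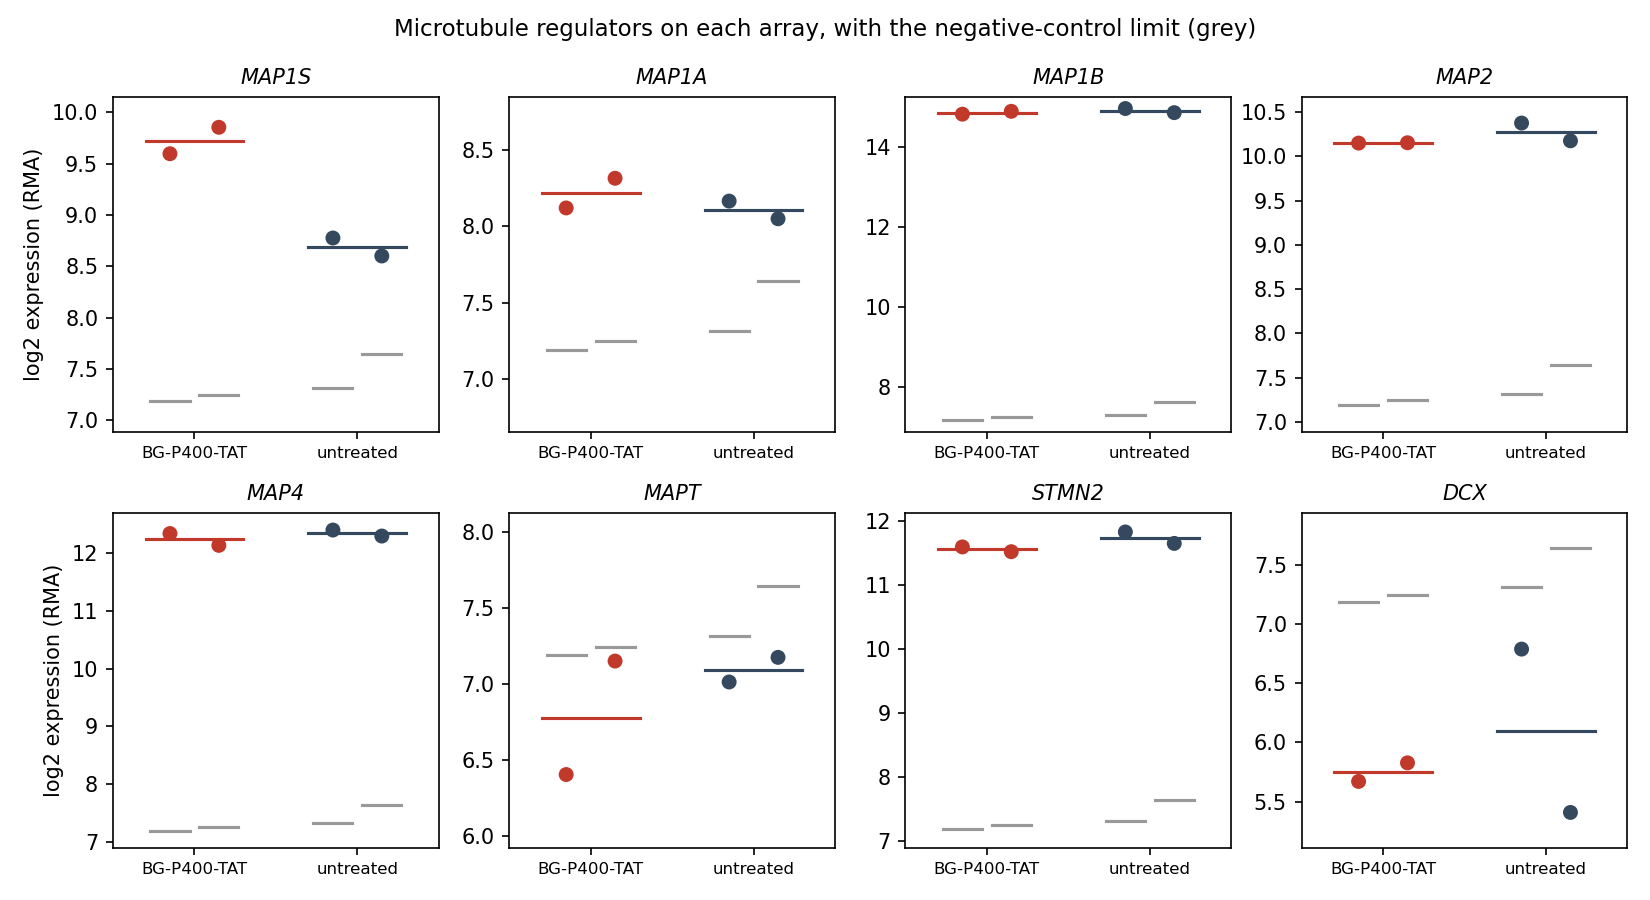
Log2 expression of the 8 microtubule regulators on each array (red points, BG-P400-TAT; dark points, untreated; coloured lines, group means; grey bars, each array's negative-control limit; each panel has its own axis). MAP1S has treated arrays at 9.60 and 9.86, both above its untreated arrays, and MAPT and DCX lie under the grey bars on all 4 arrays.

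Set against the whole table, MAP1S had the largest absolute difference of the 8705 probe sets above the limit on all 4 arrays, and was the 1 among them with a difference of at least 2-fold. The next largest was 0.83 on the log2 scale, and 99% of these probe sets were below 0.55. Over all 21448 probe sets, dim ones included, MAP1S ranked 34th by absolute difference. Since MAP1S was chosen for this difference, these ranks and distances are a description and lend it no support. Its spread within groups was ordinary: the pooled SD was 0.156, the median over probe sets above the limit was 0.151, and 52.2% of them had a smaller SD than MAP1S. No probe set passed a limma adjusted p of 0.05 (0 of 21448, or 0%), the smallest adjusted p was 0.948, and 1089 (5.08%) had an unadjusted p under 0.05.

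The 2 paralogs of MAP1S gave differences near 0. MAP1A, the family member of mature neurons, had 8.12 and 8.32 on the treated arrays, against 8.17 and 8.05 on the untreated arrays. These groups overlapped, and MAP1A lay above the limit on every array by 0.41 to 1.07. Its log2 difference was 0.11 (95% interval -0.34 to 0.56; limma adjusted p = 0.997).

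MAP1B, the family member of growing axons, had 14.81 and 14.88 on the treated arrays, against 14.95 and 14.85 on the untreated arrays. The groups overlapped, and the array gaps within them were 0.071 (treated) and 0.10 (untreated). The log2 difference of MAP1B was -0.05 (interval -0.49 to 0.38; limma adjusted p = 0.997). It exceeded the limit by at least 7.21 on every array.

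MAP2, the dendritic member of the MAP2, MAP4 and tau family, had 10.15 and 10.15 on the treated arrays, against 10.38 and 10.18 on the untreated arrays. Both treated arrays were lower, by 0.022 at the nearest pair, which is less than the 0.20 between the untreated arrays. The log2 difference was -0.12 (interval -0.57 to 0.32; limma adjusted p = 0.988).

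MAP4, the widely expressed member of that family, had 12.34 and 12.14 on the treated arrays, against 12.40 and 12.30 on the untreated arrays. The groups overlapped, and the log2 difference was -0.11 (interval -0.56 to 0.34; limma adjusted p = 0.996).

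MAPT, which encodes the axonal protein tau, had 6.41 and 7.15 on the treated arrays, against 7.01 and 7.17 on the untreated arrays. It was not above the limit on any array, so no fold is given. The treated arrays differed from each other by 0.74, and the nearest approach to the limit was 0.095 below it, on treated replicate 2.

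STMN2, the neuronal stathmin of growth cones, had 11.59 and 11.52 on the treated arrays, against 11.82 and 11.65 on the untreated arrays. Both treated arrays were lower, with 0.055 between the nearest pair, against 0.18 between the untreated arrays. Its log2 difference was -0.18 (interval -0.62 to 0.26; limma adjusted p = 0.979), and it exceeded the limit by 4.004 to 4.51.

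DCX, which encodes doublecortin, had 5.67 and 5.83 on the treated arrays, against 6.79 and 5.41 on the untreated arrays. It was below the limit on all 4 arrays, and its untreated arrays lay 1.38 apart, on either side of both treated values.

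None of the 7 relatives of MAP1S with a probe set passed the test, with limma adjusted p from 0.963 to 0.997, and none had an unadjusted p under 0.05. The 6 genes above the limit on all arrays were MAP1S, MAP1A, MAP1B, MAP2, MAP4 and STMN2. Over all probe sets 40.6% were above it on all arrays. Apart from MAP1S, 4 of the other 5 had a negative difference, from -0.18 to 0.11 with a median of -0.11, where the median over all probe sets above the limit was 0.034 and 57.9% of them were positive. Their intervals together ran from -0.62 to 0.56, so none of the 5 included a 2-fold difference in array signal. The spread behind these intervals may be technical. MAP1A was also near the limit, above the 99th percentile of the negative controls on 0 of 4 arrays, and whether background narrowed its difference was not tested. Treated arrays were both lower in 2 of these 5 (MAP2 and STMN2) and both higher in 0. Among probe sets above the limit on all arrays, 11.4% had both treated arrays lower and 20.3% both higher. With 2 arrays a group, an exact two-sided permutation test has 6 arrangements and cannot give a p below 0.333 for any single gene.

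**Figure D2:**
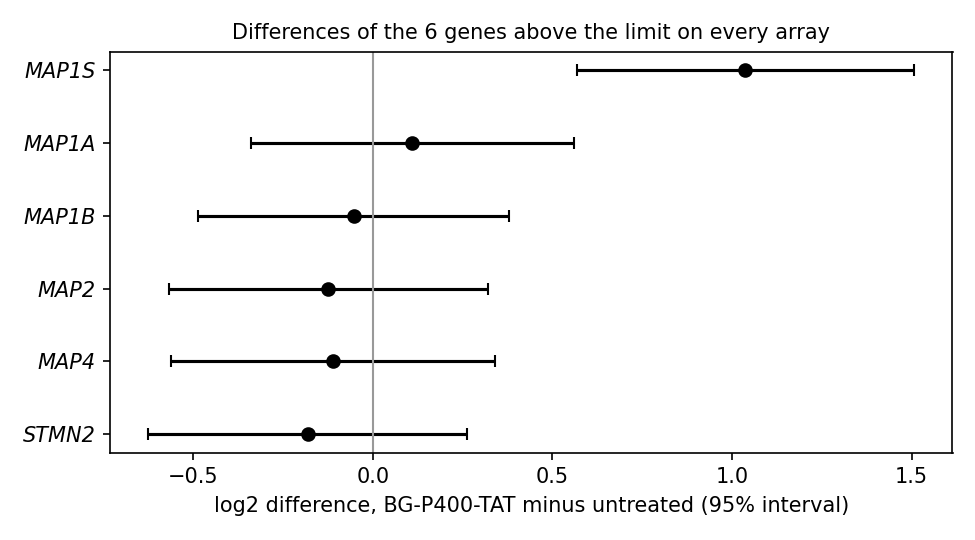
Log2 difference, BG-P400-TAT minus untreated, of the 6 genes above the negative-control limit on every array, with 95% intervals from the limma fit (n = 2 arrays per group). MAP1S, which was chosen for its difference and is not tested, stands at 1.04. The other 5 lie between -0.18 and 0.11, each with an interval that includes 0.

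**Figure D3:**
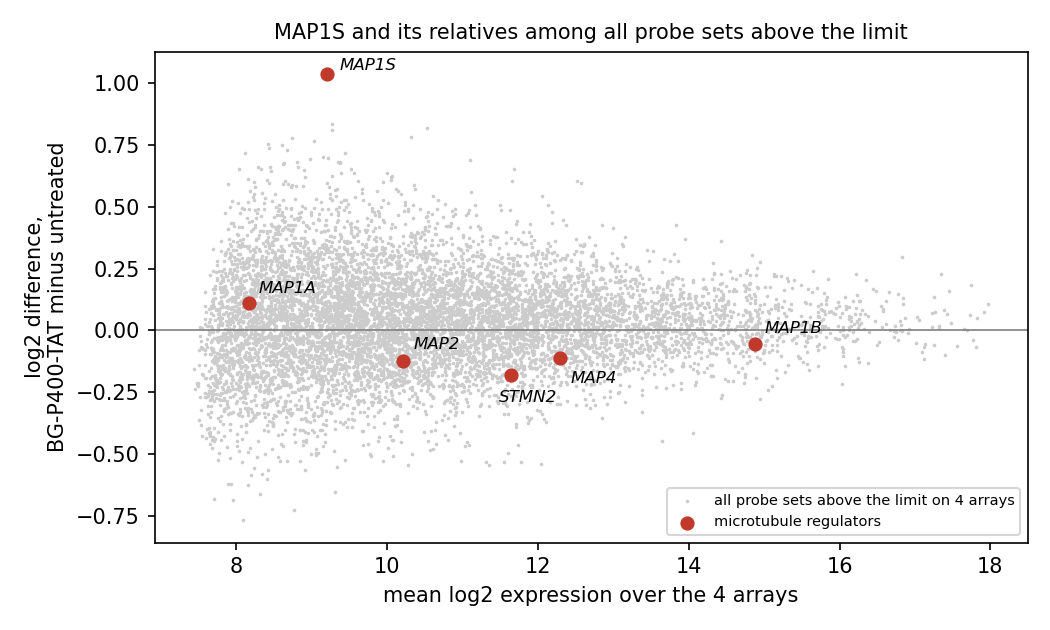
Log2 difference, BG-P400-TAT minus untreated, against mean log2 expression for the 8705 probe sets above the limit on all 4 arrays (grey) and the 6 microtubule regulators among them (red). MAP1S, which was chosen for its difference, lies above all grey points, and the other 5 lie within the grey cloud. Levels of different probe sets are not compared.

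The wider microtubule machinery was described with 10 lists of 170 genes, of which 164 had a named probe set and 102 were above the limit on all 4 arrays. None of the 164 passed the limma adjusted p of 0.05. At an unadjusted p under 0.05 there were 7 (4.27%, against 5.08% of all probe sets), and none of the 7 was above the limit on all arrays. The 102 had log2 differences from -0.39 to 0.37 with a median of 0.042, so none reached 2-fold. Both treated arrays were higher in 20 of the 102 (19.6%, against 20.3% of probe sets above the limit) and both lower in 6 (5.88%, against 11.4%).

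The list closest to MAP1S holds light chain 3, its relatives and proteins reported to bind MAP1S. MAP1LC3B, the autophagosome protein light chain 3B, had 9.58 and 9.52 on the treated arrays, against 9.58 and 9.56 on the untreated arrays. Of the 8 genes 4 were above the limit on all arrays, with a median difference of -0.0084. LRPPRC, an RNA-binding protein of mitochondria, had a log2 difference of -0.21 (interval -0.69 to 0.27), and GABARAPL2, a light chain 3 relative, 0.044 (interval -0.42 to 0.50). RASSF1, a tumour suppressor reported to bind MAP1S, and MAP1LC3A were below the limit on all arrays.

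Among 26 other structural microtubule-associated proteins, 10 differences were positive and 16 negative, with 12 genes above the limit on all arrays. CAMSAP2, which caps microtubule minus ends, had 11.45 and 11.32 on the treated arrays, against 11.67 and 11.69 on the untreated arrays. Its log2 difference was -0.30 (interval -0.73 to 0.14), and that of MAP9, a spindle protein, -0.26 (interval -0.76 to 0.24). MTCL1, named here after its value was seen, had -0.66 (interval -1.17 to -0.16, limma adjusted p = 0.948) and was below the limit on all arrays.

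None of the tubulins and their assembly factors passed the test. Of 17 alpha and beta tubulins 10 were positive and 7 negative, with TUBA4A at 0.22 (interval -0.26 to 0.70) and TUBB8 at 0.18 (interval -0.33 to 0.69). Tubulin genes include near-identical copies, so signal may be shared between their probe sets. In the gamma-tubulin list 9 of 11 were positive, with TUBE1, epsilon-tubulin, at 0.29 and MZT1, a small subunit of the nucleating complex, at -0.22. TUBGCP2, a subunit of the nucleating complex named here after its value was seen, had 0.63 (interval 0.15 to 1.11, limma adjusted p = 0.948). It was 1 of the 7 listed genes with an unadjusted limma p under 0.05, of which 4 were higher and 3 lower. It was above the limit on the 2 treated arrays, at 7.25 and 7.31, and below it on both untreated arrays, at 6.82 and 6.49. TUBGCP6, another subunit also named after its value was seen, had -0.43 (interval -1.02 to 0.15) and was below the limit on all arrays. The median of that list was 0.18, and 0.0018 without untreated replicate 2. In tubulin folding 4 of 6 were positive, with the cofactors TBCE at 0.30 and TBCC at 0.28.

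Among proteins that act at the plus end, 9 of 15 were positive. TACC3, a spindle protein, had 11.29 and 11.24 on the treated arrays, against 10.81 and 10.97 on the untreated arrays. Its log2 difference was 0.37 (interval -0.07 to 0.81), and that of APC, a tumour suppressor that binds plus ends, -0.39 (interval -0.94 to 0.17). CLIP4, named here after its value was seen, had 0.67 (interval 0.09 to 1.24, limma adjusted p = 0.948) and was above the limit on 3 arrays.

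In the list of severing and depolymerising proteins 2 of 12 differences were positive, against 49.1% of all probe sets. All 7 of its genes above the limit on every array had negative differences, where 57.9% of the probe sets above the limit had positive ones. KIF18A, a kinesin that shortens spindle microtubules, had 11.24 and 10.95 on the treated arrays, against 11.52 and 11.27 on the untreated arrays. Its log2 difference was -0.30 (interval -0.79 to 0.19), and that of KATNAL1, a katanin, -0.26 (interval -0.83 to 0.32). The list's median was -0.17 over its 12 genes, and -0.018 without untreated replicate 1.

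Of 24 tubulin-modifying enzymes 10 were positive and 14 negative, with the deacetylase SIRT2 at 0.31 (interval -0.35 to 0.97) and the polyglutamylase TTLL4 at 0.20. Kinases that phosphorylate microtubule-associated proteins, listed with the CDK5 activators CDK5R1 and CDK5R2, were positive in 6 of 10. Among them MARK4 had 0.26 (interval -0.22 to 0.74) and GSK3A 0.16. Their median was 0.096, and -0.053 without untreated replicate 2. Of 35 transport motor and dynactin genes 25 were positive, against 49.1% of all probe sets and 57.9% of those above the limit on all arrays. The number of the 35 above the limit on all arrays was also 25. The median of the 35 was 0.060, which was 0.0094 without treated replicate 1 and 0.10 without untreated replicate 1. DCTN2, a dynactin subunit, had a log2 difference of 0.35 (interval -0.13 to 0.82) and NDEL1, a dynein regulator, 0.31 (interval -0.16 to 0.78).

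**Figure D4:**
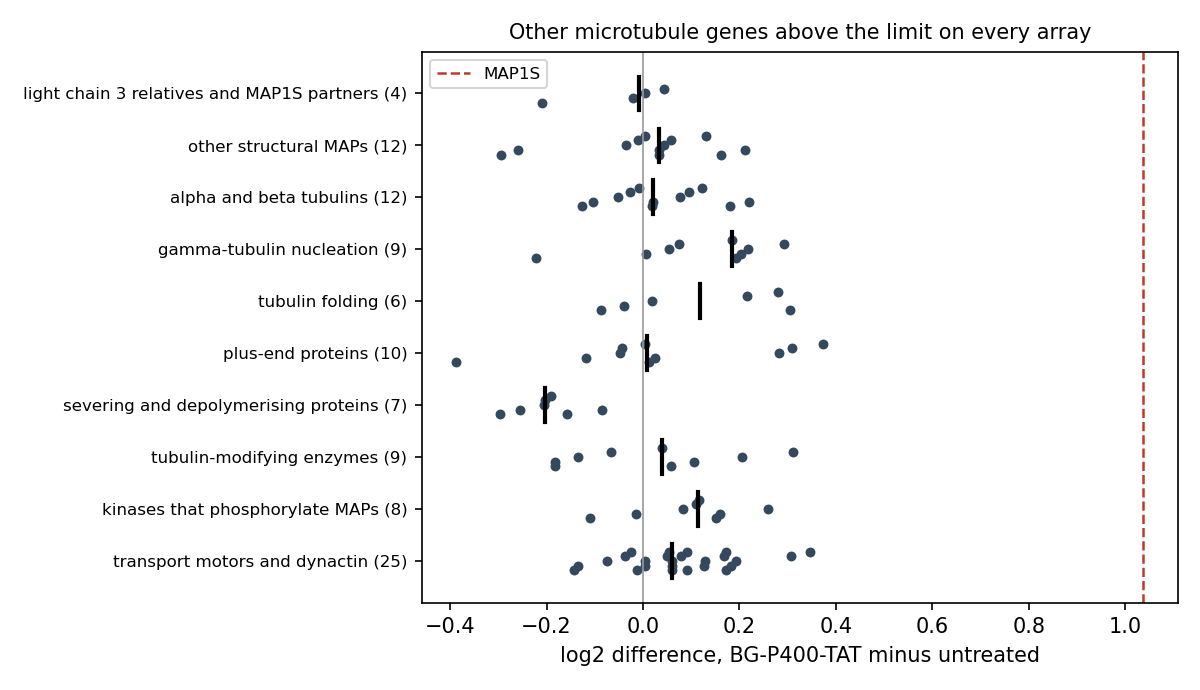
Log2 difference, BG-P400-TAT minus untreated, of the 102 other microtubule genes above the limit on all 4 arrays, by list (points, genes; black bars, list medians; number of genes in brackets; vertical scatter has no meaning). All points lie between -0.39 and 0.37, and the dashed line marks MAP1S at 1.04.

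The profile of MAP1S over the 4 arrays was compared with those of 7657 other named probe sets above the limit, by the Euclidean distance between values centred on each gene's mean. The nearest was ENPP2, which encodes autotaxin, at a distance of 0.25. ENPP2 had 10.89 and 10.99 on the treated arrays, against 10.16 and 10.08 on the untreated arrays. ORMDL3, a regulator of sphingolipid synthesis, followed at 0.33, with 8.996 and 9.26 on the treated arrays, against 8.58 and 8.13 on the untreated arrays. ARFGAP2, a GTPase-activating protein of Golgi coats, stood at 0.33, SERPINB1, a protease inhibitor, at 0.34 and NOC4L, a ribosome assembly factor, at 0.39. The log2 differences of these 5 ran from 0.68 for NOC4L to 0.83 for SERPINB1, all smaller than that of MAP1S. The measure selects genes that are higher in treated cells, so their differences are a description, over 4 arrays.

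**Figure D5:**
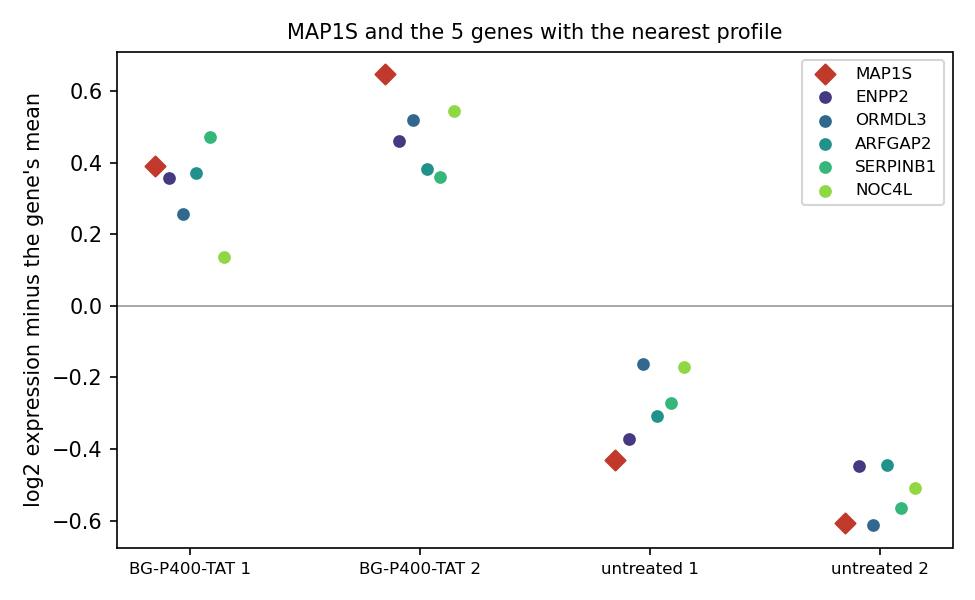
Log2 expression minus each gene's own mean over the 4 arrays for MAP1S (red diamonds) and the 5 named genes with the nearest profile (circles). All 6 are above 0 on both treated arrays and below 0 on both untreated arrays.

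The genes next to MAP1S in the RefSeq gene table did not pass the test either. Of the 3 on each side that have a probe set, COLGALT1, a collagen galactosyltransferase, was the 1 above the limit on all arrays. COLGALT1 had 11.25 and 11.28 on the treated arrays, against 11.17 and 10.69 on the untreated arrays, a log2 difference of 0.34 (interval -0.19 to 0.86; limma adjusted p = 0.949). UNC13A, NIBAN3, FCHO1, B3GNT3 and INSL3 were below the limit on every array. In that table the long noncoding gene FCHO1-AS1 overlaps MAP1S and has no named probe set here, and whether it adds to the MAP1S signal was not tested.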

How the data were processed

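Per the submitters' processing notes, RMA and version 4.0.1.36 of the Transcriptome Analysis Console were used, and the deposited numbers lie on a log2 scale, as judged by their range. RMA quantile-normalizes arrays and so takes out any shift common to most genes. Of the 24351 probe sets, 21448 are not controls, and of these 17709 have 1 symbol in the platform annotation and 3739 are unnamed here. Where a gene had several probe sets the brightest was used.

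All 21448 were fitted in limma 3.58.1 (lmFit, eBayes; R 4.3.3) with a single term for treatment, two-sided p-values, Benjamini-Hochberg adjustment and 95% intervals. The fit was tested on simulated data. At a simulated log2 change of 1, or 2-fold, it called 24 of 250 (9.6%) at an adjusted p under 0.05. At a log2 change of 2 it called 218 of 250 (87.2%). Larger log2 changes of 3 and 4 were placed in the same simulated tables, which eases the adjusted threshold for all changed probe sets. The real table had 0 probe sets passing, so these shares may be too high for a lone changed gene. Not passing the test is therefore no sign that a gene is unchanged. The number of arrays (2 per group) limits the precision. The members and lists were chosen with earlier results of these data known. Named genes are, from each list, up to 2 with the largest difference above the limit on all arrays, the 5 nearest to MAP1S in profile and its 3 neighbours on each side. TH, DBH, MAP1LC3A, MAP1LC3B, RASSF1 and the markers of other cell types were named after their values were seen. Replicate numbers were not used to pair the arrays in the fit, and the labels do not say whether cultures were paired. Alternatives were other normalizations, filters, variance settings, array weights, a replicate block, each array left out and other background limits.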

Additional observations from a re-analysis of the deposited data

How the results depend on the processing

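No probe set passed the adjusted threshold under any of the 14 alternatives to the fit that were run. These were 3 normalizations, 2 filters on dim probe sets, control sets kept, trended or robust variance, array weights, a replicate block and each of the 4 arrays left out. The log2 difference of MAP1S was 0.91 to 1.17 over them, with both extremes from an array left out. Only the normalizations and the left-out arrays could move a gene's difference. Filters, kept control sets, variance settings and the replicate block cannot change it, nor could array weights that were equal within each group. Since MAP1S was chosen for this difference, the range lends it no support. MAP1A (0.013 to 0.21), MAP1B (-0.10 to -0.0022), MAP2 (-0.22 to -0.024), MAP4 (-0.21 to -0.0084) and STMN2 (-0.27 to -0.092) kept their direction, and these extremes came with an array left out. Averaging over probe sets gave the same values, since each of these genes has 1. Samples of the 2 groups share replicate numbers, but replicate 1 minus replicate 2 correlated at -0.0008 between the groups across probe sets. The replicate block called 0 probe sets. It left the MAP1S difference at 1.04, which it cannot change when each replicate number holds 1 array of each group. At the 99th percentile of the negative controls 3 of the 8 genes (MAP1B, MAP4 and STMN2) were above the limit on all arrays, and MAP1S, MAP1A and MAP2 were not. At the 90th percentile there were 6, as there were with means over arrays against the 95th percentile of the negative sets' means, an alternative chosen after seeing the data. List medians were also computed with each array left out, and in 15 of 40 cases they moved by more than the spread between replicates.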
